A study of Homo sapiens with 4 samples.

Results

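The 99 nuclear genes of the mitochondrial respiratory chain and ATP synthase, with the complex I assembly factors of the NDUFAF series, were examined for accessible chromatin at their starts in adrenocortical tumour cells. Members were protein-coding genes of GENCODE on GRCh37 (hg19) whose symbol began with NDUFA, NDUFB, NDUFC, NDUFS, NDUFV, UQCR, COX4, COX5, COX6, COX7, COX8 or ATP5, or was SDHA, SDHB, SDHC, SDHD or CYC1, which gave 99 of 20163 protein-coding genes. Chromatin was mapped by FAIRE-seq, in which DNA free of nucleosomes is recovered from crosslinked cells and sequenced. The cells were H295R/TR SF-1, a subclone of the human adrenocortical tumour line H295R that carries a doxycycline-inducible copy of the nuclear receptor SF-1 (NR5A1) on top of its endogenous gene. They were studied at basal SF-1 expression, without induction, and during SF-1 overexpression after 3 days of doxycycline, with 1 FAIRE library in each condition. Since both libraries come from 1 subclone and doxycycline was given in 1 condition only, SF-1 dosage and the drug cannot be told apart. Input DNA was not analysed here.

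The respiratory chain passes electrons from NADH through complex I and from succinate through complex II to ubiquinone, then through complex III and cytochrome c to complex IV, which reduces oxygen. Complexes I, III and IV pump protons, and complex V, the ATP synthase, makes ATP from the gradient. Complex II is encoded wholly in the nucleus, while each of the other complexes also holds subunits made from mitochondrial DNA. The promoters of the nuclear genes are known targets of NRF1, of the ETS factor GABP, of YY1 and of the estrogen-related receptors, which read an extended half-site closely related to that of SF-1. In the adrenal cortex mitochondria also house the first step of steroid synthesis, the conversion of cholesterol by CYP11A1.

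Each library was available as a list of sites with a position and a running peak number, 34423 sites for basal SF-1 and 31219 for SF-1 overexpression, with a median width of 249 bp in both. All carried the same score of 1000, so width and the peak number were the measures of a site. Wider sites came earlier in the lists (Spearman rho -0.784 and -0.791 across sites, which are not replicates), although the quantity that set the order was not stated. The lists gave no read counts, so depth is unknown. A gene is called open below when the nearest base of a site lay within 1 kb of the 5′ end of its gene model. With 1 library a condition no difference between the conditions has a replicate check and no test was possible. Exact (Clopper-Pearson) 95% intervals of shares cover counting error only, and a gene without a site was not called, which is not evidence of closed chromatin. Of 9 adrenocortical markers, 5 were open in each list, with STAR, CYP17A1 and CYP21A2 open in both and HSD3B2 and SCARB1 in neither, and of 10 markers of other cell types 0 were open in either.

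Promoter stretches of 5 members show the short sequences that recurred in these sites. NDUFB4 (chr3:120314901-120315174, plus strand) and UQCR11 (chr19:1605473-1605772, minus strand) are shown for NRF1 letters, UQCR11 also for a pair of ETS matches, SDHB (chr1:17380528-17380827, minus strand) for an ETS match in the complex II site with the lowest peak numbers, NDUFS8 (chr11:67797851-67798083, plus strand) for YY1 letters, and ATP5MC3 (chr2:176046439-176046599, minus strand) because its site held the letters read by SF-1 and the estrogen-related receptors together with NRF1 letters. All were read from GRCh37, run 5′ to 3′ on the strand of the gene, and end at the base before the annotated start. Capitals mark matches to the NRF1 motif (GCGC, 1 free base, then TGCGC), to CCGGAAG (ETS), AANATGGCG (YY1) and CAAGGTCA or its reverse complement TGACCTTG.
NDUFB4: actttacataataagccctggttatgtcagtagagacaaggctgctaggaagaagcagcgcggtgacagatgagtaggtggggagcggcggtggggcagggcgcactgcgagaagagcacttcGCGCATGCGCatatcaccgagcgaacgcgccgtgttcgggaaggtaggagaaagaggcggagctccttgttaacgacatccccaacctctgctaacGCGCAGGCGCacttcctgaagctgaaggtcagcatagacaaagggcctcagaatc
UQCR11: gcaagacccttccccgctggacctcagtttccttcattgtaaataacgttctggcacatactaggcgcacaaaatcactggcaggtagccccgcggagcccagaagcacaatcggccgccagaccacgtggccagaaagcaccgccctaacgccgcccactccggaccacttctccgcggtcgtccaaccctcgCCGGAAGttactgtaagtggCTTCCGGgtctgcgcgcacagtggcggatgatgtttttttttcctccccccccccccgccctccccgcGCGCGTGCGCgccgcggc
SDHB: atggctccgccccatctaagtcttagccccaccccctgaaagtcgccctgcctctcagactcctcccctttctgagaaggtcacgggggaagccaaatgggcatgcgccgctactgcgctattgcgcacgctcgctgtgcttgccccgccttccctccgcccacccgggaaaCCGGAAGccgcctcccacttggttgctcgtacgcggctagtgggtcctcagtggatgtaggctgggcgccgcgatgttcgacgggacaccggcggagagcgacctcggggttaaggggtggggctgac
NDUFS8: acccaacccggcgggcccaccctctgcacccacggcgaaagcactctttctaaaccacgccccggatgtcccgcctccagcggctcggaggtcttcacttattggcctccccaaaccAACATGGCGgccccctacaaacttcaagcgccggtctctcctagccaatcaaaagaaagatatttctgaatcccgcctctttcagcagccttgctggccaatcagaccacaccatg
ATP5MC3: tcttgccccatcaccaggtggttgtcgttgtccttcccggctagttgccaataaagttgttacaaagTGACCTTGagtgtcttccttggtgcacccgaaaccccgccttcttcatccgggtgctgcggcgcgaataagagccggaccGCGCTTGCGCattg
The TGACCTTG match in ATP5MC3 runs against the gene, and one NRF1 match in NDUFB4 reads the same motif on both strands. The NRF1 match in UQCR11 lies in its basal site but outside its overexpression site.

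To ask how many respiratory chain genes had an accessible start, members with a site were counted in each list. At basal SF-1 68 of 99 members were open, which is 68.7% (58.6 to 77.6%), beside 39.4% of all protein-coding genes. At SF-1 overexpression 70 were open, which is 70.7% (60.7 to 79.4%), beside 41.2% of all genes. In both lists the share of members was thus well above that of all genes. A total of 64 members were open in both lists (64.6%, against 35.0% of all genes), 4 in the basal list only (4.04%, against 4.33%), 6 in the overexpression list only (6.06%, against 6.13%) and 25 in neither (25.3%, against 54.5%). The members that were open in 1 list only therefore made up about the same share as among all genes.

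The complexes differed in these counts. All 4 genes of complex II, succinate dehydrogenase, were open in both lists. Complex V followed with 16 of 19 genes at basal SF-1 (84.2%, 60.4 to 96.6%) and 17 at overexpression (89.5%, 66.9 to 98.7%). Complex I had 26 of 37 genes open in each list (70.3%, 53.0 to 84.1%), but 23 of these in both, with 3 in each list alone. Complex III, the cytochrome bc1 complex, had 7 and 8 of 10. Complex IV, cytochrome c oxidase, was lowest with the same 9 of 19 genes in both lists (47.4%, 24.4 to 71.1%). Among the 8 NDUFAF assembly factors, which help build complex I but are not part of it, 6 were open at basal SF-1 and 5 at overexpression. The 2 read-through genes, which join a member to its neighbour, added 1 open start, ATP5MF-PTCD1 at overexpression. The intervals of the complexes overlap widely, so no order among them is read beyond the counts.

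**Figure D1:**
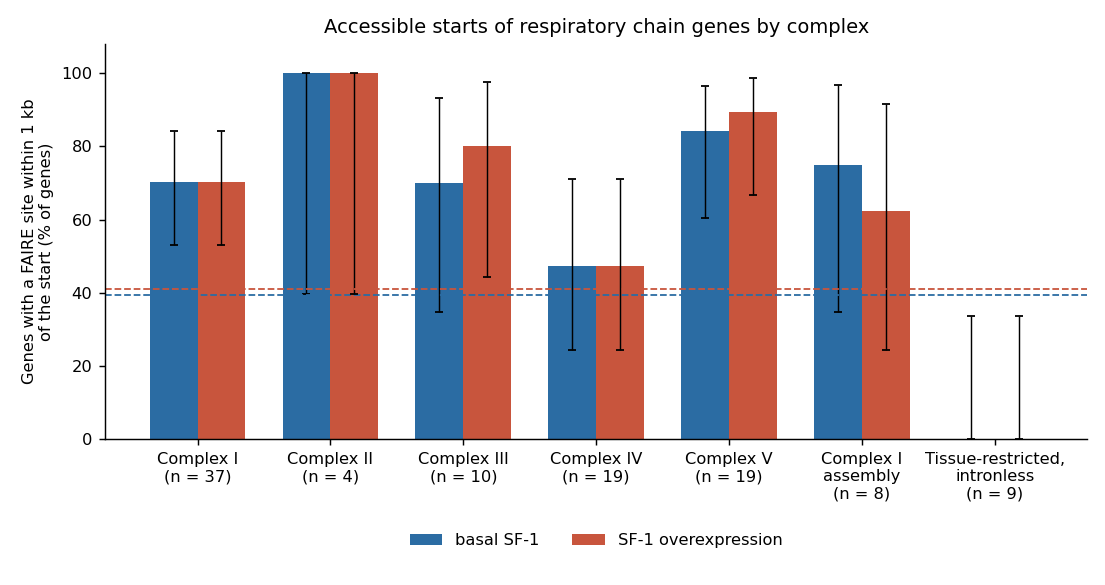
Share of genes with a FAIRE site within 1 kb of the start, in percent, for each complex, the complex I assembly factors and the 9 tissue-restricted or intronless members (which are also counted in their complexes), at basal SF-1 (blue) and SF-1 overexpression (red), with exact 95% intervals as black bars; dashed lines give all protein-coding genes (39.4 and 41.2%). Complex II stands at 4 of 4 in both lists and the tissue-restricted group at 0 of 9.

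Of the 10 complex IV genes with no site, 7 were isoforms grouped here as tissue-restricted. Over all complexes, the genes grouped as tissue-restricted isoforms or copies without introns were COX4I2, COX6A2, COX6B2, COX7A1, COX7B2, COX8C, NDUFA4L2, UQCRHL and ATP5MGL. This grouping was set by hand, and the lists hold no expression values. Of these 9 genes 0 were open in either list (0 to 33.6%). COX6A2 and COX7A1 are the isoforms of heart and skeletal muscle, and COX6B2, COX7B2 and COX8C are known from testis. Without them complex IV had 9 of 12 genes open in both lists (75.0%, 42.8 to 94.5%). With NDUFAF assembly factors and read-through genes also set aside, 62 of the 80 genes left were open at basal SF-1 (77.5%, 66.8 to 86.1%) and 64 at overexpression (80.0%, 69.6 to 88.1%). Since all 9 genes lacked a site, setting them aside raises these shares by construction. Genes were assigned to complexes by symbol, so not every gene counted need encode a subunit. Their widely expressed counterparts COX4I1, COX6A1, COX6B1, COX7B, COX8A, NDUFA4, UQCRH and ATP5MG were open in both lists, and COX7A2, the counterpart of COX7A1, had a site at another of its transcript starts.

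Within complex I the modules can be told apart by function. The N module, which oxidises NADH, had 4 of 8 genes open at basal SF-1 and 5 at overexpression. The Q module, where ubiquinone is reduced, had 5 and 6 of 8. The remaining 21 genes, mostly accessory subunits of the membrane arm, had 17 and 15. NDUFV1, which holds the flavin that accepts electrons from NADH, and NDUFS3, a core subunit of the Q module, had no site within 1 kb of the gene's 5′ end in either list, whereas the iron-sulfur subunits NDUFS1, NDUFS7 and NDUFS8 were open in both.

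Of the 25 members with no site, 9 were the tissue-restricted or intronless genes. For 8 others, among them NDUFB2, NDUFV1, UQCRC1, COX7A2, COX7A2L, ATP5MJ and NDUFAF3, a site lay within 1 kb of another annotated transcript start of the same gene. The NDUFB2 site was 399 bp wide with peak number 2665 at basal SF-1 and 649 bp wide with number 1477 at overexpression. The NDUFV1 site, with numbers 8382 and 2004, lay 1077 bp away, just outside the limit. For these genes the 5′ end of the gene model, its outermost annotated start, was thus not the start with the site, and the sites of COX7A2 and ATP5MJ likewise lay 6290 bp or more from it. When any annotated transcript start was allowed, 79.8% of members were open at overexpression and 76.8% at basal SF-1, beside 48.9 and 46.7% of all genes. The last 8 were NDUFA12, NDUFB1, NDUFC2, NDUFC2-KCTD14, NDUFS3, NDUFS6, COX6C and NDUFAF1. For NDUFS6 the nearest overexpression site, 249 bp wide with number 8791, lay 1422 bp from the start, and the nearest basal site 156222 bp away.

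The members open at basal SF-1 only were NDUFA1, NDUFA10, NDUFB6 and NDUFAF6, the first 3 of them accessory subunits of the membrane arm of complex I and the last an assembly factor. NDUFA1 (X chromosome) had a site of 199 bp with peak number 21587, which covered the start. NDUFA10 had 149 bp and number 32312, also over the start. NDUFB6 had 149 bp and number 29018, with its centre 165 bp upstream. NDUFAF6 had 99 bp, the narrowest width at any start, and number 34282 of 34423, with its centre 189 bp inside the gene. All 4 sites thus lay late in the basal list, 62.7% or more of the way down, with NDUFAF6 near its end. At overexpression the nearest site to NDUFA1 lay 14206 bp away, to NDUFA10 35341 bp and to NDUFB6 16041 bp. NDUFAF6 had an overexpression site of 299 bp with number 4633 at another of its annotated transcript starts. With any transcript start 3 of 99 members were thus open at basal SF-1 only, beside 5.04% of all genes.

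The members open at SF-1 overexpression only were NDUFA9, NDUFB7, NDUFS4, CYC1, ATP5MF and the read-through gene ATP5MF-PTCD1. NDUFB7, a membrane arm subunit of complex I, had a site of 299 bp with number 7722 (24.7% down the overexpression list), and the nearest basal site lay 2273 bp away. NDUFA9, at the joint of the peripheral and membrane arms, had 249 bp and number 8747 (28.0%). Among the 10 members open at 1 SF-1 dosage only, these 2 had the sites that stood earliest in their list. NDUFS4, a subunit of the N module whose loss is a known cause of Leigh syndrome, had 199 bp and number 19472, and the nearest basal site lay 129714 bp away. CYC1, cytochrome c1 of complex III, had 149 bp and number 28591 (91.6%), centred 217 bp upstream of the start. ATP5MF, subunit f of the ATP synthase, and ATP5MF-PTCD1 shared 1 site of 199 bp with number 16680, so that the 6 genes stood for 5 sites. AKAP3 begins within 1 kb of the NDUFA9 start, on the opposite strand.

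The promoter stretches of the sites at NDUFA1 (chrX:119005697-119005794, plus strand) and NDUFB7 (chr19:14682879-14683099, minus strand) each held 1 ETS match, marked in capitals, and are shown as examples of a start called at 1 SF-1 dosage only, the first at basal SF-1 and the second at overexpression.
NDUFA1: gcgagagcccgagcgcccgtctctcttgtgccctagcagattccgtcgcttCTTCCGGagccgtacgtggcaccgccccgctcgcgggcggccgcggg
NDUFB7: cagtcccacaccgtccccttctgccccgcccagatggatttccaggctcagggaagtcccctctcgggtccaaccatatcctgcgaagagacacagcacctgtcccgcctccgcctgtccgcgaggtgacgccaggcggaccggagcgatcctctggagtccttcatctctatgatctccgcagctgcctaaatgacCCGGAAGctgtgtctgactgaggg
Neither stretch holds CAAGGNCA.

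When each list was reduced to its first 50% by peak number, 1 of 99 members was open at basal SF-1 only, beside 3.86% of all genes, and 7 at overexpression only, beside 5.93%. None of the 4 basal-only members named above remained (the 1 was UQCRC2), and of the 6 overexpression-only members NDUFA9 and NDUFB7 remained. When the basal list was shortened to the length of the overexpression list, basal-only members fell to 2, NDUFA1 and NDUFB6 (3.77% of all genes by peak number and 3.75% by width), since NDUFA10 and NDUFAF6 lay beyond the end. Overexpression-only members were then 8 by peak number and 7 by width (6.87 and 6.86% of all genes), and these included the same 6.

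Where the sites lay, how wide they were and what they were made of was next compared with the sites at all protein-coding starts. Members had 73 distinct sites at basal SF-1 and 78 at overexpression. Their centres lay at a median of 59 bp upstream of the start at basal SF-1 (quartiles 97 bp upstream and 25 bp downstream) and 53 bp upstream at overexpression, beside 55 and 49 bp upstream over all genes. At basal SF-1 53 of 73 sites covered the start itself (72.6%, against 62.5% over all genes), 6 lay upstream, 13 within an exon and 1 within an intron. At overexpression 56 of 79 gene-site pairs covered it (70.9%, against 63.1%), 7 lay upstream, 11 in an exon and 5 in an intron. The sites were thus placed on the start and the first bases upstream of it, as at other genes. Member sites had a median width of 249 bp at basal SF-1 (quartiles 199 and 349 bp) and 299 bp at overexpression (249 and 349 bp), where starts of all genes had 299 bp in both lists. Since starts lie on a grid of 50 bp, the smallest difference in width is 50 bp. Median GC content was 61.7 and 61.4% for member sites and 65.1 and 65.7% for those of all genes. By place in the list, 21 of 73 member sites (28.8%) were among the first 10% at basal SF-1 and 27 of 78 (34.6%) at overexpression, beside 24.1 and 24.0% over all genes.

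**Figure D2:**
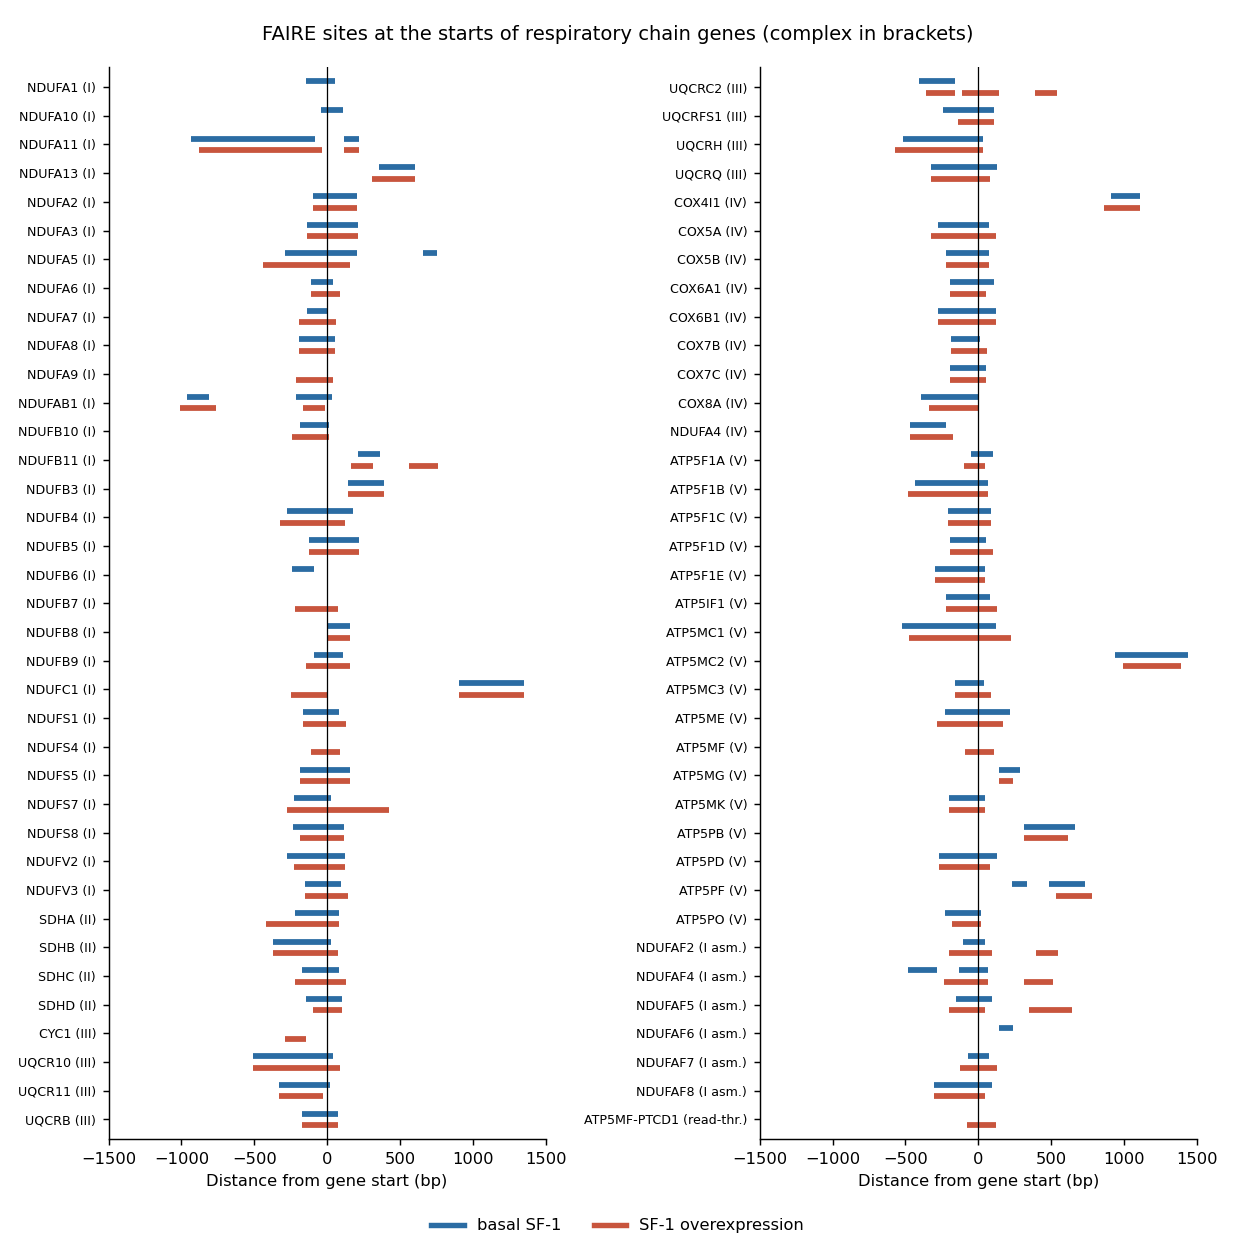
FAIRE sites of the 74 members with a site in at least 1 list, drawn to scale by distance in bp from the gene's 5′ end (upstream to the left), with basal SF-1 sites in blue above overexpression sites in red and the complex in brackets. Most bars cross the start; NDUFC1, ATP5MC2 and COX4I1 have sites about 1 kb inside the gene.

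The widest member site was that of NDUFA11, a membrane arm subunit of complex I, with 849 bp in both lists (peak numbers 1118 and 2177). It lay upstream, and VMAC begins within 1 kb of the NDUFA11 start on the opposite strand. NDUFA5 followed in complex I at basal SF-1 with 499 bp (number 1895) and had 599 bp at overexpression (number 4794). In complex III UQCR10 and UQCRH, small subunits, both had 549 bp at basal SF-1 and 599 bp at overexpression. In complex IV COX6B1 and COX8A had 399 bp at basal SF-1, and COX5A with 449 bp and COX6B1 with 399 bp led at overexpression. In complex V ATP5MC1, one of 3 genes for the c-ring protein, had 649 and 699 bp and ATP5F1B, the catalytic beta subunit, had 499 and 549 bp. Among the assembly factors NDUFAF8 led in both lists, with 399 and 349 bp, and NDUFAF5 had 249 bp for its widest site at basal SF-1 and 299 bp at overexpression.

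The member site with the lowest peak number belonged to complex V in each list, to ATP5F1B at basal SF-1 and to ATP5ME at overexpression. ATP5F1B had number 63 of 34423 at basal SF-1 and 154 of 31219 at overexpression. ATP5ME, the membrane subunit e, had number 558 at basal SF-1 and 62 at overexpression. Both starts were therefore within the first 2% of either list. The lowest numbers of complex I were those of NDUFC1 (124 and 97), for a site centred 1130 bp inside the annotated gene. COX6B1 led complex IV (359 and 265), SDHB complex II (1418 and 294), and NDUFAF8 the assembly factors (1591 and 2708). In complex III UQCRB led at basal SF-1 (3434) and UQCR10 at overexpression (696).

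Complex II can be given in full. SDHA, the flavoprotein that binds succinate, had a site of 299 bp with number 1772 at basal SF-1 and of 499 bp with number 1947 at overexpression. SDHB, the iron-sulfur subunit, had 399 bp and 449 bp. SDHC, a membrane anchor, had 249 bp with number 9016 and then 349 bp with number 2973. SDHD, the other anchor, had 249 bp with number 4964 and then 199 bp with number 9157. All 4 sites covered the start in both lists. The site was wider at overexpression in SDHA, SDHB and SDHC and narrower in SDHD, and each of these pairs is 1 library against 1 library.

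To compare the same start at both SF-1 dosages, the site nearest to the start was taken in each list for the 64 members open in both. For 61 of these the sites overlapped, and 14 had the same interval to the base. The site was wider at overexpression for 26 of 61 (42.6%), wider at basal SF-1 for 15 (24.6%) and of equal width for 20 (32.8%). Over all 6780 genes with overlapping sites the shares were 43.6, 26.3 and 30.0%. The shift towards wider sites at overexpression was thus close to that of all genes. By place in the list, 36 of 61 sites (59.0%) stood earlier at overexpression, beside 53.8% over all genes. Of the 5 assembly factors compared, 4 stood earlier. At 66 of 73 basal member sites (90.4%) and 66 of 78 overexpression sites (84.6%) the other list had an overlapping site, beside 84.0 and 79.4% of sites at all starts.

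Among single members the largest width difference with overlapping sites was at NDUFS7, an iron-sulfur subunit of the Q module, with 249 bp at basal SF-1 and 699 bp at overexpression, where the peak numbers were late in both lists (27269 and 20519). SDHA followed with 200 bp more at overexpression and NDUFAF2 with 150 bp more, and 7 members had 100 bp more. The NDUFAF2 site moved from 92.5% to 24.7% of the list, the largest change of place among overlapping sites. NDUFAB1, the mitochondrial acyl carrier protein, UQCRFS1, the Rieske protein of complex III, and ATP5MC2 had sites 100 bp narrower at overexpression. The UQCRFS1 site moved from 13.4% to 46.1% of the list, and that of NDUFB3 from 13.8% to 38.3% with its width and position unchanged. The nearest sites of NDUFC1, UQCRC2 and ATP5PF did not overlap between the lists. Sites over the starts of NDUFC1 and UQCRC2 were listed at overexpression only, and a site of 99 bp at ATP5PF at basal SF-1 only.

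**Figure D3:**
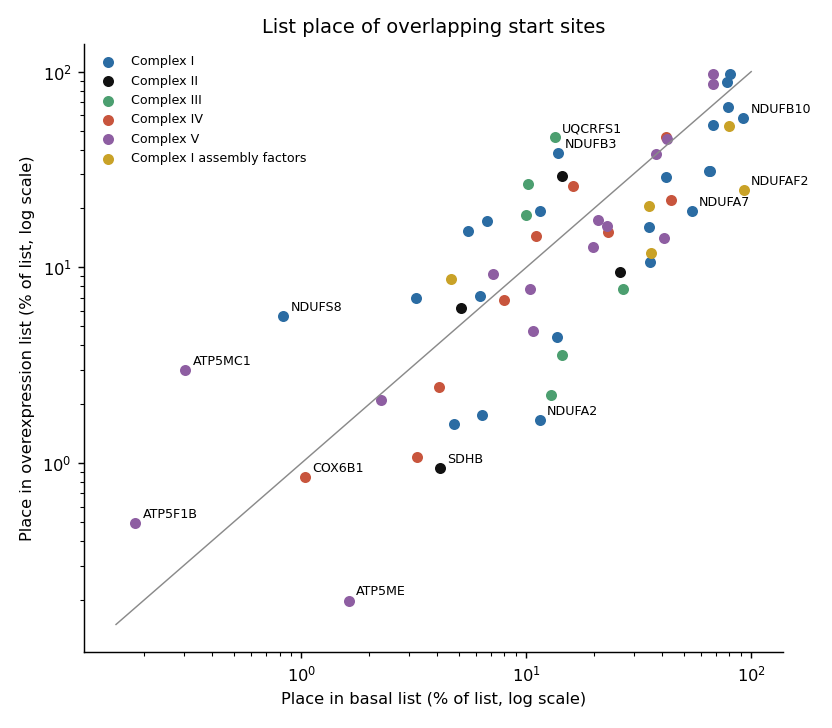
Place of the start site in the basal list (horizontal) and in the overexpression list (vertical), each as the peak number in percent of the list length on a log scale, for the 61 members whose nearest sites overlapped, coloured by complex; the grey line marks equal place. ATP5F1B, ATP5ME and COX6B1 lie near the front of both lists, and 36 of 61 points lie below the line, earlier at overexpression.

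Some starts carried more than 1 site. Members had 73 gene-site pairs for 68 open genes at basal SF-1, beside 8985 for 7937 over all genes. At overexpression they had 79 for 70, beside 9471 for 8300. Sites per open gene were thus no more frequent in members than over all genes. NDUFA11 and NDUFAB1 had 2 in each list and NDUFAF4 had 2 in each list, with the second at another position. NDUFA5 and ATP5PF had 2 at basal SF-1 only. NDUFB11, NDUFC1, NDUFAF2 and NDUFAF5 had 2 at overexpression, where UQCRC2, a core protein of complex III, had 3 against 1 at basal SF-1. The second site of NDUFAF5 at overexpression was 299 bp wide with number 2842, was centred 497 bp inside the gene in an intron, and had no overlapping basal site. The second sites of NDUFAF2 and NDUFAF4 at overexpression were intronic too. The second NDUFAF4 site at basal SF-1 lay 383 bp upstream, and was not called at overexpression.

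Members often share their start region with another gene. Another protein-coding start lay within 1 kb for 43 of 99 members (43.4%, against 17.5% of all genes), and for 36 (36.4%, against 13.3%) it lay on the opposite strand. The first count includes same-strand and read-through gene models, such as NDUFC2-KCTD14 for NDUFC2. Examples are NDUFB5 with MRPL47, a mitochondrial ribosomal protein gene, and SDHD with TIMM8B, which encodes a mitochondrial import protein. Of the 43 members with such a neighbour 33 were open at basal SF-1 and 35 at overexpression. Of the 56 without one, 35 were open in each list (62.5%, 48.5 to 75.1%). Over all genes, with or without such a neighbour, 39.4 and 41.2% were open. Shares by neighbour were not taken over all genes, so 62.5% has no background of lone starts beside it. A site at a shared start cannot be assigned to one gene. The same holds for the larger site of ATP5PF (numbers 8395 and 13263), which also lies within 1 kb of the start of GABPA, the DNA-binding subunit of GABP, although the 2 starts are more than 1 kb apart.

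Since the share of open starts over all genes differed with promoter GC content, shares were also taken by class of GC content in the window from 250 bases before to 50 after the start. Median GC content of this window was 59.3% for members and 60.3% for all genes. Below 50% GC, 8 of 14 members were open at overexpression (57.1%) beside 16.7% of all genes in that class, and 6 of 14 at basal SF-1 (42.9%) beside 16.8%. From 50 to 60% GC the members' shares were 73.7% in both lists beside 41.4 and 42.6%, from 60 to 70% they were 74.3% beside 52.9 and 55.8%, and from 70% they were 66.7% beside 42.8 and 45.9%. The share of members was above that of all genes in every class of both lists, although the classes of 14 and 12 members have wide intervals. The 6 members below 50% GC with a site in both lists were NDUFC1, COX7B, COX4I1, UQCR10, COX7C and UQCRH.

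**Figure D4:**
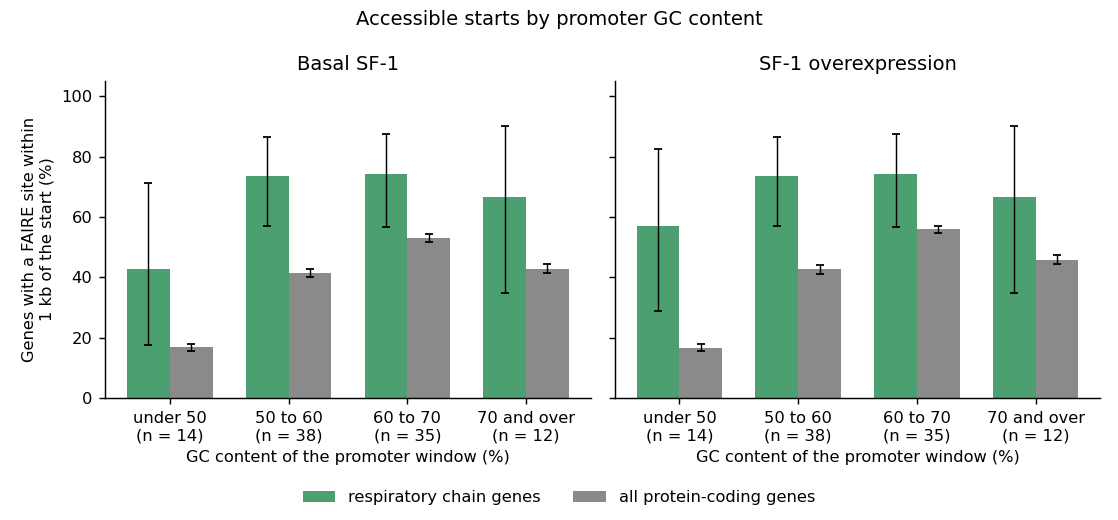
Share of genes with a FAIRE site within 1 kb of the start, in percent, by GC content of the promoter window, for the respiratory chain genes (green, n under each class) and all protein-coding genes (grey), with exact 95% intervals as black bars. In every class and both lists the green bar is higher; below 50% GC the overexpression shares are 57.1 and 16.7%.

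What the promoters had in common in sequence was then counted, in the same window of 300 bases and on both strands. The NRF1 letters were in 22 of 99 member windows (22.2%, 14.5 to 31.7%), beside 6.92% of all protein-coding promoters. The YY1 letters AANATGGCG were in 16 (16.2%, 9.53 to 24.9%), beside 3.48%. The ETS letters CCGGAAG were in 20 (20.2%, 12.8 to 29.5%), beside 11.8%. Matches to these 3 were therefore more frequent in members. The SP letters GGGCGG were in 51.5% of member windows beside 52.1%, the NF-Y letters CCAAT in 32.3% beside 35.8% and the TATA letters TATAAA in 12.1% beside 10.9%. CAAGGNCA is a loosened form of the half-site of SF-1 and the estrogen-related receptors, with its sixth base left free. It was in 6 (6.06%, 2.26 to 12.7%), beside 4.84%. A match is a description of the letters, not evidence that a factor was bound. The NRF1 motif can match both strands at 1 position, and none of the other motifs contains another.

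**Figure D5:**
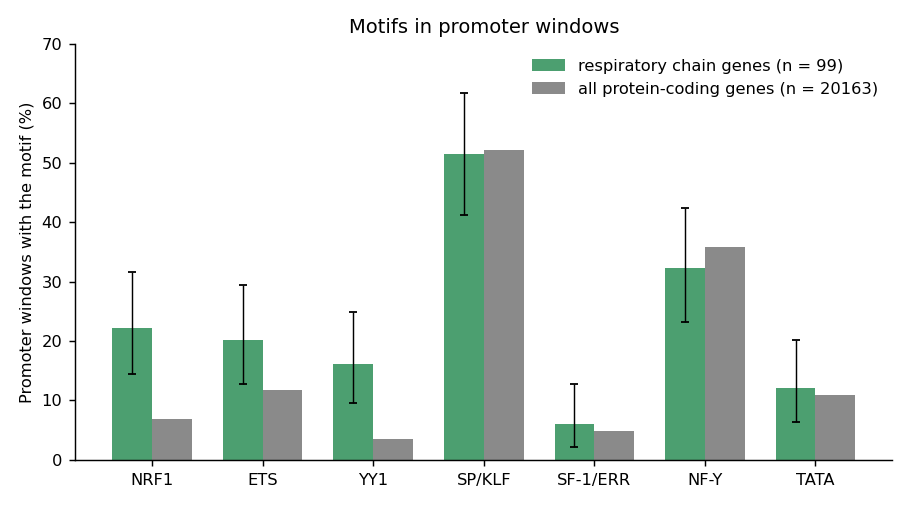
Share of promoter windows (250 bases before to 50 after the start) that hold each motif on either strand, in percent, for the 99 respiratory chain genes (green, exact 95% intervals as black bars) and all 20163 protein-coding genes (grey). NRF1 (22.2 against 6.92%) and YY1 (16.2 against 3.48%) differ most, and SP/KLF, NF-Y and TATA lie close together.

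By complex, NRF1 letters were found in 7 windows of complex I, 2 of complex II (SDHA and SDHD), 4 of complex III (UQCR10, UQCR11, UQCRB and UQCRFS1), 2 of complex IV, 6 of complex V and 1 of the assembly factors. YY1 letters were in 7 windows of complex I, and ETS letters in 6 of complex I and 5 of complex IV. Of the 74 members open in at least 1 list 19 held NRF1 letters (25.7%) and 19 held ETS letters, and of the 25 with no site 3 and 1. Within the FAIRE sites themselves NRF1 letters were in 18 of 73 basal sites (24.7%, beside 14.4% of sites at all starts, with an interval of 15.3 to 36.1%) and 17 of 78 overexpression sites (21.8%, 13.2 to 32.6%, beside 14.4%). YY1 letters were in 17.8% of basal member sites (9.84 to 28.5%) and 25.6% of overexpression sites (16.4 to 36.8%), beside 7.53 and 7.66%. ETS letters were in 30.1% (19.9 to 42.0%) and 28.2% (18.6 to 39.5%), beside 21.1 and 21.0%. Compared with other accessible starts the intervals for YY1 lay above the share of all sites in both lists, that for NRF1 did so at basal SF-1, and those for ETS did not. SDHA held the most NRF1 matches, 4 in its site, followed by NDUFB4 with 3, of which the promoter stretch above shows the first 2. ATP5MK held 3 ETS matches, of which 2 overlap on opposite strands.

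The loosened half-site was looked at further because SF-1 itself was raised. CAAGGNCA was in 8 of 73 basal member sites (11.0%, 4.85 to 20.5%) and 8 of 78 overexpression sites (10.3%, 4.53 to 19.2%), beside 4.63 and 5.27% of sites at all starts. The genes were NDUFB3, NDUFS5, SDHD, ATP5F1B, ATP5MC1, ATP5MC3 and ATP5MG in both lists, NDUFAF4 at basal SF-1 and NDUFAF5 at overexpression. Of these SDHD, ATP5MC3, ATP5MG, NDUFAF4 and NDUFAF5 held CAAGGTCA, the form with T at the sixth base. The others held A or G there, so they matched the loosened form only. From 500 bases before to 500 after the start, CAAGGNCA was in 37.4% of members beside 17.6% of all genes.

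Split by the sixth base, which was done after the data had been seen, CAAGGTCA was in 20 of 99 members (20.2%, 12.8 to 29.5%) in the window of 500 bases to each side, beside 4.95% of all genes. CAAGGCCA was in 7 (7.07%, beside 5.53%), CAAGGACA in 8 (8.08%, beside 4.27%) and CAAGGGCA in 6 (6.06%, beside 4.40%). The excess over all genes was thus largest for the form with T. The 20 genes were NDUFA9, NDUFB5 and NDUFB9 of complex I, all 4 genes of complex II, UQCR10 of complex III, COX5B, COX6A1, COX6C, COX7A1 and COX8A of complex IV, ATP5F1B, ATP5MC3 and ATP5MG of complex V, and NDUFAF1, NDUFAF4, NDUFAF5 and NDUFAF8. Of their 22 matches 15 lay downstream of the start, 12 of these by more than 200 bp.

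Most of these matches lay outside the FAIRE sites. In each list 4 of 22 were inside a site, those of SDHD, ATP5MC3 and ATP5MG in both, that of NDUFAF4 at basal SF-1 and that of NDUFAF5 at overexpression. CAAGGTCA was in 5.48% of basal member sites (4 of 73, 1.51 to 13.4%) and 5.13% of overexpression sites (4 of 78, 1.41 to 12.6%), beside 1.07 and 1.11% of sites at all starts. In NDUFAF5 the match lay 389.5 bp inside the gene, in the intronic site that was called at overexpression only. In NDUFAF4 it lay 364.5 bp upstream, in the site that was called at basal SF-1 only. The 2 sites with the match that were found in 1 list only therefore went in opposite directions. The NDUFAF4 site (chr6:97346051-97346249, minus strand) is shown with the match in capitals.
NDUFAF4: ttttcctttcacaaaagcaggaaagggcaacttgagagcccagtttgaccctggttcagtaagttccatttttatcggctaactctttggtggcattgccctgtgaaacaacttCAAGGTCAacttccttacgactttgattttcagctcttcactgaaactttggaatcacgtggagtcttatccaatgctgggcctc

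The matches of complex II are shown because every gene of the complex had one. Each line gives the match in capitals with 11 bases to either side, 5′ to 3′ on the strand that reads CAAGGTCA, which is the gene's own strand for SDHA (chr5:218887-218916, plus strand), SDHB (chr1:17380150-17380179, minus strand) and SDHC (chr1:161284530-161284559, plus strand) and the opposite strand for SDHD (chr11:111957597-111957626, minus strand).
SDHA: tcgtgtctgccCAAGGTCAcccgggcggat
SDHB: cttgaattgctCAAGGTCAcatggcaagcg
SDHC: gaaaataacttCAAGGTCAgccacccatgg
SDHD: tcctgagggctCAAGGTCAtccaccaaccc
In SDHA the match was centred 483.5 bp downstream of the start, within an intron, and 399 bp from the nearest site of either list. In SDHB it lay 362.5 bp downstream, also intronic, 333 bp from the basal and 283 bp from the overexpression site. In SDHC it lay 373.5 bp downstream, in an exon of at least 1 annotated transcript, 292 and 242 bp from the sites. In SDHD it lay 63.5 bp downstream in an exon and within the site of both lists. For 3 of the 4 genes the letters thus lay downstream of the accessible stretch and not in it.

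Other genes of the pathway gave shares of the same order as the members. Of 38 further assembly factors, 27 were open at basal SF-1 (71.1%) and 29 at overexpression (76.3%). Of 14 genes for electron carriers and ubiquinone synthesis 12 and 11 were open, among them CYCS, cytochrome c, with 499 and 549 bp in both lists. Of 13 genes of the TCA cycle, which feeds electrons to the chain, 9 (69.2%) and 11 (84.6%) were open, with SUCLG2, SUCLA2 and DLD open at overexpression only and IDH3B at basal SF-1 only. Mitochondrial ribosomal protein genes (78) had shares of 73.1 and 75.6%, and cytosolic ribosomal protein genes (88) of 75.0 and 81.8%. High shares were thus also seen in these sets of widely expressed genes.

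Of 20 regulators of the respiratory chain and mitochondrial DNA, 17 were open at basal SF-1 and 16 at overexpression. NRF1, GABPA, GABPB1, YY1, SP1, ESRRA, TFAM and POLRMT had sites in both lists, and SP1 had one of the first sites of either, 849 bp with number 43 and 949 bp with number 190. ESRRB, ESRRG and PPARGC1A, which encodes the coactivator PGC-1alpha, had none in either. The helicase gene TWNK was open at basal SF-1 only, with a site of 99 bp and number 31947.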

How the data were processed

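FAIRE-seq was analysed in 2 libraries of H295R/TR SF-1 cells, 1 at basal SF-1 expression and 1 at SF-1 overexpression, grouped per the labels. The authors deposited 1 browser track for each library, with a position, a running peak number and a score per site; the deposited score was 1000 throughout. The submitters' processing notes name CASAVA 1.8 and hg19. The aligner, peak caller and threshold for FAIRE are not given in the sources used here, and neither is depth. Lists that differ in depth or threshold differ in how many sites they hold, which was not corrected for.

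The gene models were those of GENCODE release 44 in its GRCh37 mapping, and sequence was read from GRCh37. A gene was open in a list when the nearest base of a site lay within 1 kb of its 5′ end. Coordinates are 1-based. Sites that overlapped by 1 bp counted as shared. Shares have exact 95% intervals. No test between conditions was possible. Promoter sequences shown stop at the gene start and at exons of other genes. The members, gene lists and motifs were chosen with earlier results of these data known. Named were members open in 1 list only, those with no site, the 2 widest and the first site of each complex, sites with CAAGGNCA, complex II, CYC1, members with several sites and the 5 largest width differences in either direction. Further names (among them those beyond the first 10 by symbol with no site, and examples of neighbours, motifs, low GC content and list place) were chosen after their values were seen. Alternatives were other distances, any transcript start, shorter lists, subsets of members and other motif windows, and 2 for CAAGGTCA were added after seeing the data. Calls were tested on simulated data of 2000 genes with 0 wrong calls. Python 3.11.15, numpy 2.4.6, scipy 1.17.1, pysam 0.24.0, samtools 1.23.1 and matplotlib 3.10.9 were used. The values of 1 member are not reported here.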

Additional observations from a re-analysis of the deposited data

How the results depend on the processing

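No paired analysis was possible because each condition had 1 library, so no replicate could be left out either. Of 86 alternative values for 18 results, 66 stayed within the main value's interval or, for counts, within 1.5 times the main count. With the first 50% of each list the open shares were 52.5% at basal SF-1, 58.6% at overexpression and 51.5% in both. Over all genes these shares were 29.6, 31.7 and 25.8%. Basal-only members then numbered 1, beside 3.86% of all genes. The median site width was 324 bp at basal SF-1 and 299 bp at overexpression, so that the order of the widths (249 and 299 bp) turned. Basal-only members numbered 2 with lists of equal length, by peak number or by width, beside 3.77 and 3.75% of all genes. At overexpression the share was 79.8% with any transcript start, beside 48.9% of all genes. It was 80.0% for the 80 genes left without assembly factors, read-through, tissue-restricted or intronless genes, beside 41.2% of all genes. The 9 tissue-restricted or intronless genes had no site, so leaving them out raises the share by construction. No such genes were left out of the 41.2%. Overexpression-only members numbered 3 among the 56 members with no other gene start within 1 kb (5.36%), beside 6.13% of all genes. In the window of 500 bases to each side the shares with a motif were 28.3% for YY1, 79.8% for SP, 37.4% for CAAGGNCA, 69.7% for NF-Y and 26.3% for TATA. Over all genes they were 7.5, 71.7, 17.6, 65.6 and 27% in the same order. CAAGGTCA alone, added after seeing the data, was in 20.2% there and in 4.04% of promoter windows, beside 4.95 and 1.16% of all genes. In FAIRE sites at basal SF-1 the shares were 30.1% for ETS and 5.48% for TATA, beside 21.1 and 4.98% of sites at all starts. At overexpression they were 25.6% for YY1 and 62.8% for SP, beside 7.66 and 71.8%. The cause was not tested. Depth was unknown, so members without a site may have had signal below the threshold of the list.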

Other observations

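The subunits of complexes I, III, IV and V that are not encoded in the nucleus come from mitochondrial DNA, which each list held as 1 site over its whole length. This site was 16599 bp wide and had peak number 6 at basal SF-1 and at SF-1 overexpression. Its width follows the 50 bp grid of the lists and is not the length of the molecule. It was not compared with the sites at nuclear starts.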
